A study of Mus musculus with 6 samples.

Results

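The simple epithelial keratins Krt7, Krt8, Krt18, Krt19, Krt20 and Krt23, the mesenchymal filament gene Vim (vimentin) and Nes (nestin) were followed in mice with renal fibrosis, 8 genes of 20416 measured. They were the probe sets whose annotation gave exactly 1 symbol, equal to one of these names, and together they held 61 probe sets. The genes were chosen by their log2 differences between these same arrays, so those differences are described here and not tested. RNA of mice with renal fibrosis induced by TGF-β1 was measured on 6 arrays, 3 of the mouse strain group CBAxB6-TGFbeta (replicates 4, 5 and 6) and 3 of the strain group B6-TGFbeta (replicates 1, 2 and 3). Both groups carry TGFbeta in their names and the fibrosis in their labels, so no mice without TGFbeta stand for comparison. The labels add the word KO to the first group and WT to the second without naming a gene, and state that cohorts were littermates of matched age and sex. The labels used here give no age or sex, do not say how TGF-β1 was raised, and name no tissue beyond the renal disease, so that the RNA came from kidney is inferred from the disease and from the kidney genes given below. Nothing states that each array was a separate animal, so the errors measure the spread between arrays.

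Keratins build filaments only as pairs of a type I and a type II chain, and in a simple epithelium the founding pair is keratin 8 (type II) with keratin 18 (type I). Krt7 is a further type II chain, and Krt19, Krt20 and Krt23 are type I chains. Vimentin is a type III protein that forms filaments by itself in fibroblasts, endothelium, leukocytes and podocytes, and nestin joins vimentin filaments in podocytes and immature cells. In the kidney, tubule cells that respond to injury are known to make more of keratins 8 and 18 and to take up vimentin.

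Values are log2 intensities, and gene values combine the probe sets of a gene by median polish. Array medians ran from 7.27 to 7.34, and arrays correlated over all probe sets at 0.953 to 0.963 within CBAxB6-TGFbeta, 0.9647 to 0.9715 within B6-TGFbeta and 0.946 to 0.954 between the groups. Of 12 kidney tubule genes all but Pvalb, which was dim (5.04 in CBAxB6-TGFbeta and 6.08 in B6-TGFbeta), averaged above 8 in both groups, with the phosphate transporter gene Slc34a1 of the proximal tubule at 10.03 to 10.48 in CBAxB6-TGFbeta and 12.06 to 12.29 in B6-TGFbeta. B6-TGFbeta replicate 2 stood apart through genes of neighbouring tissues. The brown fat gene Ucp1 was at 10.93 there, against 5.13 to 6.22 on the other arrays, and the adrenal gene Dbh at 7.002, against 5.11 to 5.45. The summed intensity of 7 adrenal genes was 5568 in replicate 2, 951.7 in replicate 1 and 382.3 in replicate 3 of B6-TGFbeta, beside 361.6 to 386.7 in CBAxB6-TGFbeta. Differences of the 8 genes without replicate 2, and against replicate 3 alone, are therefore given beside their values.

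The promoter windows of the genes with the largest differences are shown because Krt8, Krt18, Krt20 and Vim were all higher together. Each window runs from 250 bases before to 50 bases after the RefSeq start of transcription, is read 5′ to 3′ on the gene's strand and is credited to RefSeq (GRCm38.p6). The windows are chr15:102004293-102004592, minus strand, for Krt8, chr15:102027966-102028265, plus strand, for Krt18, chr11:99438104-99438403, minus strand, for Krt20 and chr2:13574061-13574360, plus strand, for Vim. Capitals mark every match, on either strand, to the motifs searched.

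Krt8: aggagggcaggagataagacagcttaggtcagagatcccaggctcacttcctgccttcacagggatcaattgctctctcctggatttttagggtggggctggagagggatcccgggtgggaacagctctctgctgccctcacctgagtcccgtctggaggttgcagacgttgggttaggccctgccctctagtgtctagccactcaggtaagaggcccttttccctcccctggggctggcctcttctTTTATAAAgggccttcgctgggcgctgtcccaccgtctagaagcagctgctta

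Krt18: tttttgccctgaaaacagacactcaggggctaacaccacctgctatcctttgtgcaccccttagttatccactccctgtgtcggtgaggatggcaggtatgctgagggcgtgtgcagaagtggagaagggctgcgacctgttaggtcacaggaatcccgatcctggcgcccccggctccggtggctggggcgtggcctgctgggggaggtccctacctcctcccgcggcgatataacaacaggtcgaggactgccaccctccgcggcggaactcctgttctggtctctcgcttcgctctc

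Krt20: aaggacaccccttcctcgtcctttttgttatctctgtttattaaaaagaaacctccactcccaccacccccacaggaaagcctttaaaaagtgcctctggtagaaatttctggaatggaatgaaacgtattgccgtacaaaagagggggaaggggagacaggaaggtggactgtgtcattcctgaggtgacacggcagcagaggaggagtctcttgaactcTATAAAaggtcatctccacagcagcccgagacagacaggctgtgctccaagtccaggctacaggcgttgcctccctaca

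Vim: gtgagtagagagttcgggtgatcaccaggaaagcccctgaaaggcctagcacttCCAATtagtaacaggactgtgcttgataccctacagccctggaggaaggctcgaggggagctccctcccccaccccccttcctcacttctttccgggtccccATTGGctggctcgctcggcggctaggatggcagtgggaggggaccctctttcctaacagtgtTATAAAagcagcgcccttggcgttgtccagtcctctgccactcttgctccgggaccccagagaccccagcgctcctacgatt

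The motifs were the TATA box (TATAAA), the motif known as the CAAT box (CCAAT), the GC box GGGCGG, the AP-1 site TGANTCA, the EGR site GCGNGGGCG and the STAT site TTCNNNGAA, none of which overlapped another kind in the 7 windows matched to the 8 genes (Krt19 had none). A TATA box stood 29 bases before the start in Krt20 and 32 bases before it in Vim. In Krt8 a match on each strand began 3 and 1 bases before the RefSeq start. TATAAA occurred in 13.6% of all 32851 RefSeq windows of this length. Vim also held CCAAT at 196 bases and, on the other strand, at 94 bases before the start, a motif of 37.4% of windows. The Krt18 window held none of the motifs. GC boxes, found in 35.7% of windows, stood in Krt7 at 4 places and in Nes at 2, and Krt23 held none of the motifs. No window of the 7 held the AP-1, EGR or STAT letters, which occurred in 7.81%, 5.55% and 8.30% of all windows.

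Krt8 and Krt18, the founding pair of simple epithelia, were both higher in CBAxB6-TGFbeta. Krt8 had 10.84, 10.74 and 10.25 in CBAxB6-TGFbeta replicates 4, 5 and 6, against 9.62, 9.54 and 9.44 in B6-TGFbeta replicates 1, 2 and 3. Each array of CBAxB6-TGFbeta was higher than any of B6-TGFbeta. The means were 10.61 ± 0.32 in CBAxB6-TGFbeta and 9.53 ± 0.09 in B6-TGFbeta (SD, n = 3 each), and CBAxB6-TGFbeta minus B6-TGFbeta came to 1.08 on the log2 scale (SE 0.15), or 2.11-fold. Krt18 had 9.78, 8.86 and 8.49 in CBAxB6-TGFbeta, against 8.12, 7.83 and 8.09 in B6-TGFbeta. The groups again did not overlap, but replicate 4 stood well above the other two CBAxB6-TGFbeta arrays. Its means were 9.05 ± 0.67 in CBAxB6-TGFbeta and 8.02 ± 0.16 in B6-TGFbeta (SD, n = 3 each), and CBAxB6-TGFbeta minus B6-TGFbeta came to 1.03 on the log2 scale (SE 0.27), or 2.04-fold. Without CBAxB6-TGFbeta replicate 4 the log2 difference was 0.66. Krt8 and Krt18 ranked 121 and 142 from the top among the differences of all 20416 genes. Without B6-TGFbeta replicate 2 the differences were 1.08 for Krt8 and 0.94 for Krt18, and against B6-TGFbeta replicate 3 alone they were 1.17 and 0.95.

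Krt20 showed the largest difference of the 8 genes and ranked 4 among all genes. Keratin 20 is a type I chain best known from the gut lining, the umbrella cells of the bladder and Merkel cells. It had 9.65, 9.19 and 8.74 in CBAxB6-TGFbeta, against 5.91, 5.95 and 6.19 in B6-TGFbeta. A gap of 2.55 on the log2 scale separated the lowest CBAxB6-TGFbeta array from the highest B6-TGFbeta array. The means were 9.20 ± 0.45 in CBAxB6-TGFbeta and 6.02 ± 0.15 in B6-TGFbeta (SD, n = 3 each), and CBAxB6-TGFbeta minus B6-TGFbeta came to 3.18 on the log2 scale (SE 0.20), or 9.06-fold. The B6-TGFbeta mean lay close to 5.73, the value under which the dimmest 25% of genes fell, and no background measure was used here. The difference was 3.14 without B6-TGFbeta replicate 2 and 3.006 against B6-TGFbeta replicate 3 alone.

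The other keratins of simple epithelia overlapped between the groups. Krt7, a chain of ducts and of the urothelium, had 8.85, 8.80 and 8.76 in CBAxB6-TGFbeta, against 8.82, 8.84 and 8.63 in B6-TGFbeta, a log2 difference of 0.040 (SE 0.099). Krt19, a short chain of duct epithelia, had 7.53, 6.89 and 6.58 in CBAxB6-TGFbeta, against 6.94, 6.95 and 6.97 in B6-TGFbeta. Its CBAxB6-TGFbeta arrays lay on both sides of a very narrow B6-TGFbeta group, with ranges of 0.95 in CBAxB6-TGFbeta and 0.029 in B6-TGFbeta on the log2 scale. The log2 difference was 0.046 (SE 0.20), and -0.22 without CBAxB6-TGFbeta replicate 4. Krt23, a type I chain, had 5.73, 5.55 and 5.60 in CBAxB6-TGFbeta, against 5.57, 5.50 and 5.80 in B6-TGFbeta, a difference of 0.0040 (SE 0.11). It was the dimmest of the 8 genes by its place among all genes, with 23.3% of genes dimmer, so its signal was weak. Without B6-TGFbeta replicate 2 the differences were 0.078 for Krt7, 0.043 for Krt19 and -0.058 for Krt23, and against B6-TGFbeta replicate 3 alone they were 0.17, 0.029 and -0.18. The SE do not show that these 3 genes were equal in the groups.

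Vim was higher in CBAxB6-TGFbeta and Nes overlapped. Vim had 12.01, 11.86 and 11.64 in CBAxB6-TGFbeta, against 10.67, 11.07 and 11.03 in B6-TGFbeta. The groups did not overlap, and the 2 groups were about equally wide (ranges 0.37 in CBAxB6-TGFbeta and 0.39 in B6-TGFbeta). The means were 11.84 ± 0.18 in CBAxB6-TGFbeta and 10.92 ± 0.22 in B6-TGFbeta (SD, n = 3 each), and CBAxB6-TGFbeta minus B6-TGFbeta came to 0.91 on the log2 scale (SE 0.14), or 1.88-fold. Nes had 8.12, 7.57 and 7.30 in CBAxB6-TGFbeta, against 7.14, 7.42 and 6.92 in B6-TGFbeta. The lowest CBAxB6-TGFbeta array fell below B6-TGFbeta replicate 2. The log2 difference was 0.50 (SE 0.20), and 0.27 without CBAxB6-TGFbeta replicate 4. Without B6-TGFbeta replicate 2 the differences were 0.99 for Vim and 0.63 for Nes, and against B6-TGFbeta replicate 3 alone they were 0.81 and 0.74. In such bulk RNA, more or fewer cells of a type and more or less RNA per cell cannot be told apart.

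**Figure D1:**
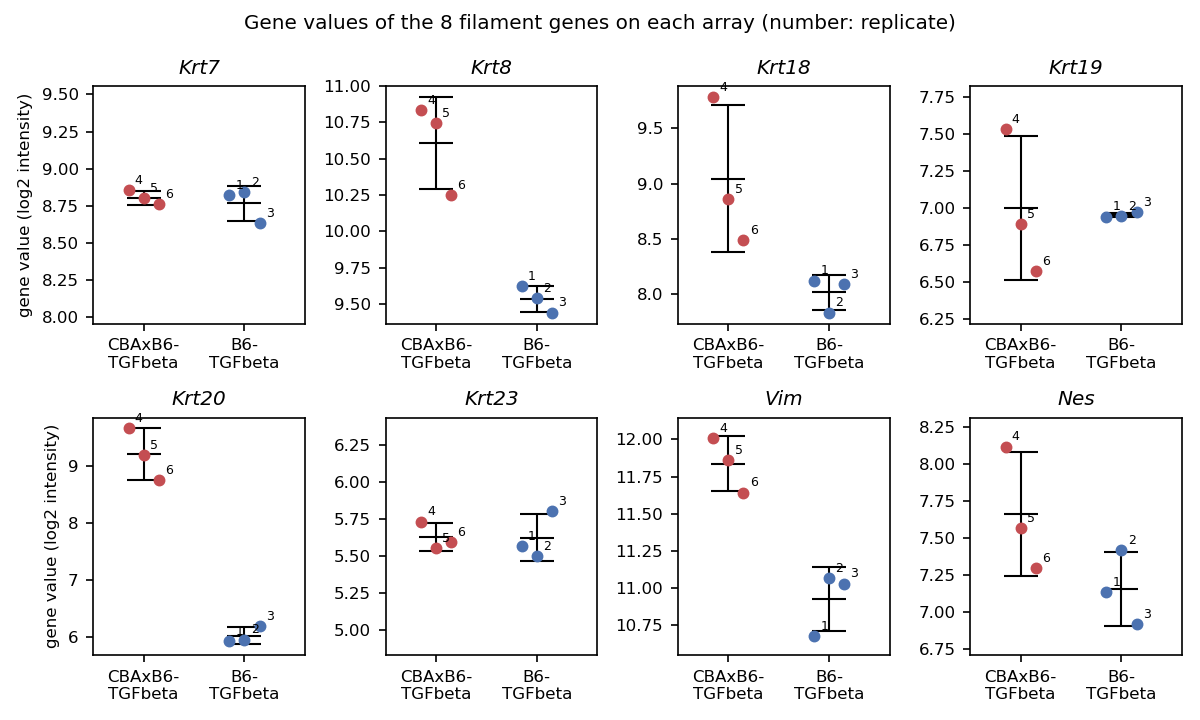
Gene values (log2 intensity, own axis per gene) of the 8 filament genes on each array, CBAxB6-TGFbeta in red and B6-TGFbeta in blue. Points are arrays numbered by replicate, and bars are the mean and SD (n = 3). For Krt8, Krt18, Krt20 and Vim the 3 CBAxB6-TGFbeta arrays all lie above the B6-TGFbeta arrays, and replicate 4 is the highest CBAxB6-TGFbeta array for all 8 genes.

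As a description, 3 of the 8 genes (Krt8, Krt20 and Vim) had an adjusted p under 0.05 in limma over all genes, all of them higher, where 7.65% of genes passed in either direction, 3.08% higher and 4.57% lower. CBAxB6-TGFbeta lay wholly above B6-TGFbeta in 4 of the 8, a state of 13.5% of all genes. The median log2 difference of the 8 was 0.71, against 0.018 over all genes. Since the same differences led to the choice of these genes, nothing is read from these shares. With 3 arrays a group the calls were fragile: against B6-TGFbeta replicate 3 alone 1 gene passed (Krt20), without moderation of the variances none did in limma (5 of the 8 had an unadjusted p under 0.05 with moderation), and Krt18 passed when CBAxB6-TGFbeta replicate 4 or 6 was left out.

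Single probe sets followed the gene values to different degrees. The gene values were made from these same probe sets and the genes chosen by these differences, so this is a description and no test. All 9 Krt20 probe sets (10390851 to 10390859) lay wholly above in CBAxB6-TGFbeta, with differences from 2.21 to 5.01. The largest came from its dimmest probe set (10390857), which averaged 8.66 in CBAxB6-TGFbeta and 3.65 in B6-TGFbeta, and the brightest gave 3.32. Vim was higher at 12 of 12 probe sets (10469323 to 10469334), from 0.23 to 1.14, with 10 wholly above. Its brightest probe set gave 0.99 and its dimmest 0.23. Krt18 was higher at 7 of 7, from 0.25 to 1.32, with 5 wholly above. Krt8 rested on 4 probe sets (10432919 to 10432922), all higher, from 0.41 to 1.44. Its brightest probe set (10432921) was the one that overlapped between the groups, at 10.38 in CBAxB6-TGFbeta and 9.96 in B6-TGFbeta, so the brightest probe set alone gives 0.41 for Krt8 where all 4 together give 1.08.

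Probe sets of the other genes pointed both ways. Krt7 had 6 of 10 probe sets higher, from -0.57 to 0.15, with none free of overlap. Krt23 had 4 of 8 higher, from -0.44 to 0.44. Krt19 had 4 of 6 higher, and 1 probe set (10391041) lay wholly below, at 4.86 in CBAxB6-TGFbeta and 6.15 in B6-TGFbeta, a difference of -1.28 (SE 0.37). Nes had 4 of 5 higher, up to 0.73, and its dimmest probe set (10493115) gave -0.54. Over the 61 probe sets, 50 were higher, 29 lay wholly above and 1 wholly below, and 10.0% of all probe sets with 1 symbol lay wholly above. Of the 29, 9 came from Krt20, 10 from Vim, 5 from Krt18, 3 from Krt8 and 1 each from Krt23 and Nes. Probe sets of 1 gene are repeated measures, and the genes were chosen by these differences, so nothing is read from these counts.

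**Figure D2:**
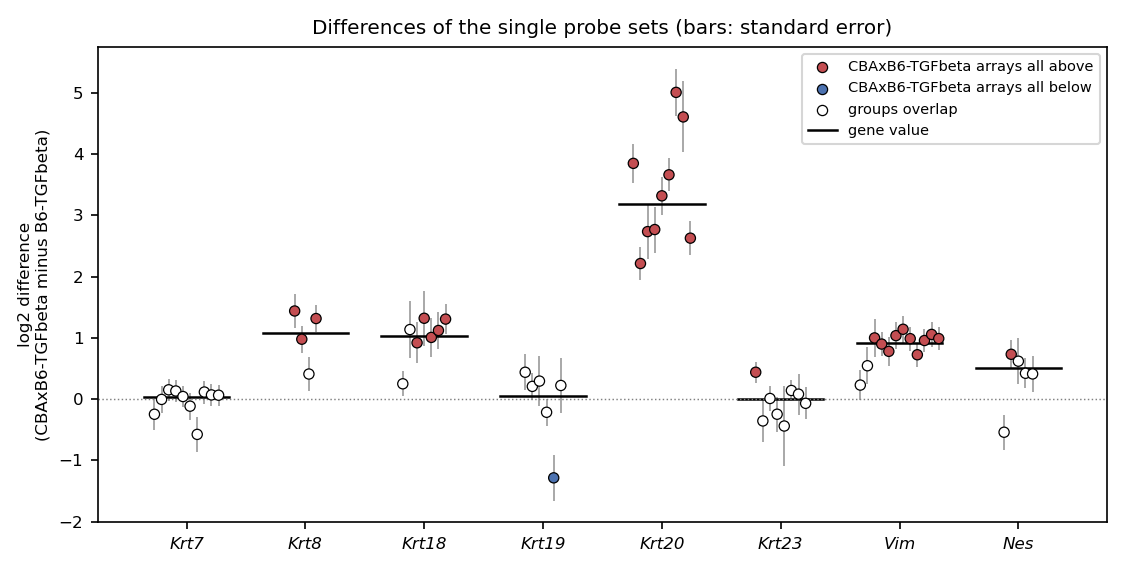
Log2 difference (CBAxB6-TGFbeta minus B6-TGFbeta) of each probe set, in order of its number, with SE as bars, and the gene value as a black line. Red points are probe sets whose CBAxB6-TGFbeta arrays all lie above B6-TGFbeta, blue ones all below, white ones overlap. The 9 Krt20 probe sets range from 2.21 to 5.01, and 1 Krt19 probe set lies wholly below, at -1.28.

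The 8 genes shared an order of arrays. CBAxB6-TGFbeta replicate 4 was the highest of its group for 8 of 8 genes, including the 4 that overlapped between groups, and replicate 6 was the lowest for 7 of 8, Krt23 being the exception. Over all genes replicate 4 was the highest CBAxB6-TGFbeta array in 31.9% and replicate 6 the lowest in 37.8%. Among the genes higher in CBAxB6-TGFbeta the shares were 52.2% and 45.1%. Both positions together held for 7 of the 8 genes, 21.1% of all genes and 31.2% of the genes higher in CBAxB6-TGFbeta. B6-TGFbeta arrays showed no such order, replicate 2 and replicate 3 each being the highest for 3 genes and replicate 1 for 2. The 8 genes come from the same libraries, so these counts are not independent.

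Likeness of profiles was measured as the Euclidean distance between log2 gene values over the 6 arrays, each centred on its own mean. Among genes with at least 3 probe sets, the nearest to Krt20 was Timp1, a metalloproteinase inhibitor named in the study's title, at a distance of 0.53 and with a log2 difference of 2.88 (SE 0.19). The nearest to Krt8 was Tnc, the matrix glycoprotein tenascin C (distance 0.18, difference 1.11), and to Krt18 the metalloproteinase Mmp27 (0.34 and 1.14). Nearest to Vim was the transcription factor Creb5 (0.091 and 0.89), and to Nes the PDZ and LIM domain protein Pdlim3 (0.21 and 0.46). For the flat genes the nearest profiles were Usp9y for Krt7 (0.047), Ms4a7 for Krt19 (0.17) and Wnt7a for Krt23 (0.076). Krt8 was closest, among the 8 genes, to Vim (0.50, rank 71 of 20415) and its pairing partner Krt18 lay further off (0.69). Seen from Krt18, Krt8 ranked 59. With 6 arrays in 2 groups such distances mostly follow the group difference.

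Genes beside Krt8, Krt18, Krt20 and Vim on the chromosome had small differences, apart from the Krt8 and Krt18 pair. In the RefSeq order of protein-coding genes Krt8 and Krt18 lie side by side on chromosome 15, flanked by Krt78 (0.14, SE 0.12) and the translation factor gene Eif4b (-0.16, SE 0.13). Krt20 lies on chromosome 11 between Krt12 (0.16, SE 0.13) and Krt23 (0.0040, SE 0.11), and Vim on chromosome 2 between Trdmt1 (-0.14, SE 0.12) and St8sia6 (0.11, SE 0.21). Of these flanking genes Krt78, Eif4b, Krt12, Trdmt1 and St8sia6 had adjusted p of 0.579, 0.557, 0.559, 0.566 and 0.835 in limma over all genes.

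The rest of the filament family is given beside the 8 genes, listed by family and not by how it moved. The 8 genes were chosen by their differences, so the rest lacks them by selection. Nothing is read from the contrast between them. Of 59 measured genes in 3 lists, none passed in limma over all genes, 4 had an unadjusted p under 0.05, and the log2 differences ran from -0.30 to 0.60 with a median of 0.060. In a linear model without moderation none passed either. Of 14 other intermediate filament genes (desmin, neurofilaments, lamins and lens filaments among them), Lmnb1, a B-type lamin of the nuclear envelope, had 8.59, 9.14 and 8.92 in CBAxB6-TGFbeta, against 8.09, 8.51 and 8.24 in B6-TGFbeta (difference 0.60, SE 0.16, adjusted p 0.0529). Sync, the muscle filament protein syncoilin, differed by 0.52 (SE 0.17, adjusted p 0.101), and by 0.31 without B6-TGFbeta replicate 3. That array stood at 8.58 for Sync, against 9.17 and 9.24 in B6-TGFbeta replicates 1 and 2. Neither gene overlapped between the groups. Lmnb1 passed without B6-TGFbeta replicate 2 or CBAxB6-TGFbeta replicate 4.

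Of 22 keratins of stratified epithelia none passed in limma and 1 had an unadjusted p under 0.05. Some were dim, such as Krt6b (3.68 in CBAxB6-TGFbeta and 3.51 in B6-TGFbeta). Others were brighter, such as Krt10 (7.41 in CBAxB6-TGFbeta and 7.45 in B6-TGFbeta). Krt9, of palm and sole skin, differed by 0.34 (SE 0.14, adjusted p 0.201) at 5.06 in CBAxB6-TGFbeta and 4.71 in B6-TGFbeta, and Krt16, of wounded skin, by 0.27 (SE 0.13, adjusted p 0.264). Of 23 measured hair and root sheath keratins none passed in limma and 1 had an unadjusted p under 0.05. Krt33b averaged 7.80 in CBAxB6-TGFbeta and 7.45 in B6-TGFbeta (difference 0.35, SE 0.097, adjusted p 0.0610), and Krt33a, a close relative whose signal may be hard to separate from it, averaged 5.16 in CBAxB6-TGFbeta and 5.46 in B6-TGFbeta (-0.30, SE 0.14, adjusted p 0.252). The medians of the 3 lists were 0.097, 0.094 and 0.0056. CBAxB6-TGFbeta lay wholly above in 7 of the 59 genes (11.9%), near the 13.5% of all genes.

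**Figure D3:**
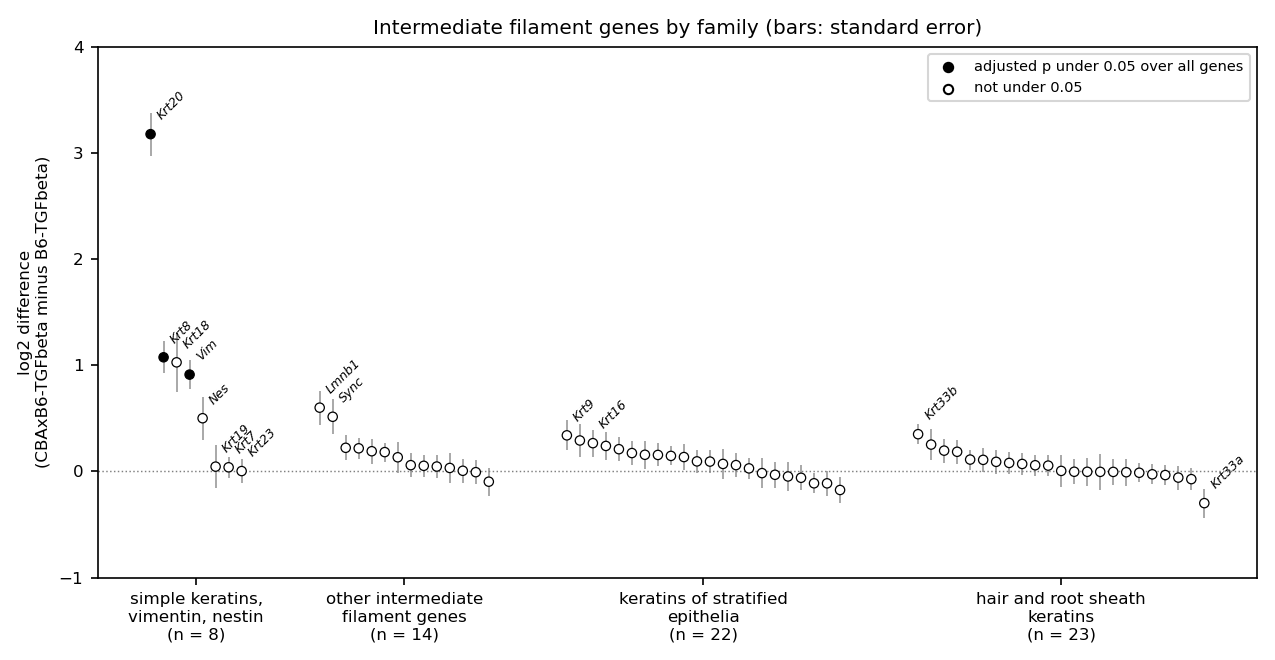
Log2 difference (CBAxB6-TGFbeta minus B6-TGFbeta) of the 8 genes and of 59 other filament genes in 3 lists, each sorted by size, with SE as bars. Filled points had an adjusted p under 0.05 over all genes. Krt20, Krt8 and Vim are filled, and the 59 others run from -0.30 to 0.60.

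Of 17 linker and desmosome genes, which anchor filaments, 1 rose, 1 fell and 15 missed the threshold. At an unadjusted p 6 were under 0.05, CBAxB6-TGFbeta lay wholly above in 4 and wholly below in 3, and the differences ran from -0.45 (Jup) to 0.55 (Plec), with a median of 0.0066. Pkp2, a desmosomal plakophilin, had 9.06, 8.91 and 9.04 in CBAxB6-TGFbeta, against 8.67, 8.62 and 8.55 in B6-TGFbeta (0.39, SE 0.096, adjusted p 0.0418 in limma). Dst, the cytoskeletal linker dystonin, fell to 9.71, 9.71 and 9.76 in CBAxB6-TGFbeta, against 10.19, 10.13 and 10.16 in B6-TGFbeta (-0.43, SE 0.088, adjusted p 0.0199 in limma). Pkp2 missed the threshold with any 1 array left out (adjusted p 0.0684 to 0.131), and Dst without CBAxB6-TGFbeta replicate 5 (0.0682) or any 1 array of B6-TGFbeta (0.0580 to 0.0946).

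Of 10 measured chaperones and adaptors, Ywhah, a 14-3-3 protein of the family that binds phosphorylated keratins, rose (0.43, SE 0.098, adjusted p 0.0312 in limma) and 9 did not pass, with differences from -0.50 (Cryab) upwards. Of the 10, 3 had an unadjusted p under 0.05. Of 15 epithelial identity genes, the splicing regulator Esrp2 fell (-0.48, SE 0.12, adjusted p 0.0490 in limma) and 14 missed the threshold. Of the 15, 6 had a positive difference and 4 had an unadjusted p under 0.05 in limma. CBAxB6-TGFbeta lay wholly below in 3 of them and wholly above in 0. The medians of these lists were 0.10 and -0.032. Ywhah passed with CBAxB6-TGFbeta replicate 6 left out and missed the threshold without any other single array (adjusted p 0.0589 to 0.125). Esrp2 passed without CBAxB6-TGFbeta replicate 4 and missed it without any other (0.0807 to 0.191).

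Marker genes of cell types that hold these filaments moved between the groups as well, and their part in the differences of the 8 genes was not tested. Beside Vim, 9 of 10 macrophage genes rose and 1 did not pass. Their summed intensity was 4298 to 7089 in CBAxB6-TGFbeta and 1991 to 2581 in B6-TGFbeta, with the chemokine receptor Ccr2 (2.34, SE 0.29) and the scavenger receptor Msr1 (2.19, SE 0.15) largest. By array the macrophage sum was 7089, 4298 and 5362 in CBAxB6-TGFbeta replicates 4, 5 and 6, and 2057, 2581 and 1991 in B6-TGFbeta replicates 1, 2 and 3. Of 7 lymphocyte genes Ptprc (1.05, SE 0.19), which all leukocytes express, and Cd2 (0.41, SE 0.11) rose. The sums were 926.9 to 1216 in CBAxB6-TGFbeta and 594.3 to 729.8 in B6-TGFbeta. They include Ptprc, which averaged 9.41 in CBAxB6-TGFbeta and 8.35 in B6-TGFbeta where Cd2 averaged 6.22 and 5.81. The sums are thus no measure of lymphocytes alone. Of 10 fibroblast and pericyte genes 2 rose and 8 did not pass, with sums of 11680 to 12710 in CBAxB6-TGFbeta and 9246 to 10160 in B6-TGFbeta. CBAxB6-TGFbeta lay wholly above in 6 of the 10, and 7 had an unadjusted p under 0.05 in limma. Lumican (Lum), on 3 probe sets, differed by 1.54 (SE 0.37), and Dpt by -0.70 (SE 0.24) without passing. Lum had 8.35, 7.40 and 8.87 in CBAxB6-TGFbeta, against 6.32, 7.325 and 6.35 in B6-TGFbeta. With 1 array left out, Lum passed in limma without B6-TGFbeta replicate 2 (adjusted p 0.0199) or CBAxB6-TGFbeta replicate 5 (0.0149). It missed the threshold without any other single array (0.0733 to 0.148). Of 9 endothelial genes 4 fell and none rose, among them Kdr (-0.57, SE 0.11) and Flt1 (-0.45, SE 0.11), with sums of 6811 to 7509 in CBAxB6-TGFbeta and 8766 to 9303 in B6-TGFbeta. All 9 lay wholly below in CBAxB6-TGFbeta and had an unadjusted p under 0.05 in limma. Over all 20416 genes, 2726 lay wholly below and 4399 had such a p. Podocytes hold both vimentin and nestin, and 3 of 7 podocyte genes fell, among them Podxl (-0.64, SE 0.13) and Ptpro (-0.48, SE 0.12), with sums of 2343 to 2658 in CBAxB6-TGFbeta and 3192 to 3279 in B6-TGFbeta.

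Beside the keratins, none of 9 urothelium genes passed in limma, and none had an unadjusted p under 0.05. Their summed intensity was 1293, 944.2 and 974.9 in CBAxB6-TGFbeta replicates 4, 5 and 6, against 1026, 1219 and 1037 in B6-TGFbeta replicates 1, 2 and 3, and the groups overlapped. Upk1a (-0.21, SE 0.27) and Foxa1 (-0.18, SE 0.12) had the largest differences there. Of 9 collecting duct genes 4 fell and none rose, with Aqp3 at -1.09 (SE 0.16) and Scnn1g at -0.51 (SE 0.12), and sums of 2057 to 2526 in CBAxB6-TGFbeta and 2972 to 3465 in B6-TGFbeta. CBAxB6-TGFbeta lay wholly below in 7 of the 9, and 7 had an unadjusted p under 0.05 in limma. Of 12 kidney tubule genes 10 fell and none rose, with Slc34a1 at -1.88 (SE 0.13) and Slc12a3 at -1.53 (SE 0.17), and sums of 16330 to 20650 in CBAxB6-TGFbeta and 32780 to 37020 in B6-TGFbeta. All 12 lay wholly below in CBAxB6-TGFbeta, and 11 had an unadjusted p under 0.05 in limma. Of 8 parietal epithelium and mesothelium genes, the hyaluronan receptor Cd44 (1.78, SE 0.21) and the tight junction gene Cldn1 (1.08, SE 0.11) rose and 6 did not pass. Only these 2 of the 8 had a positive difference, and the median of the list was -0.095. CBAxB6-TGFbeta lay wholly above in 2 and wholly below in 1 (Pax2, -0.32, SE 0.12), and 3 had an unadjusted p under 0.05 in limma. Cd44, which leukocytes also express, had 9.31, 8.75 and 8.35 in CBAxB6-TGFbeta replicates 4, 5 and 6, against 6.96, 7.18 and 6.93 in B6-TGFbeta. Replicate 4 was thus highest and replicate 6 lowest in CBAxB6-TGFbeta, as for most of the filament genes. That order held for 21.1% of all genes and 31.2% of the genes higher in CBAxB6-TGFbeta. No brown fat or adrenal gene passed in limma (0 and 2 had an unadjusted p under 0.05).

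These marker counts leaned on single arrays. With 1 array left out in turn, 6 to 9 macrophage genes, 5 to 10 tubule genes, 1 to 4 collecting duct genes, 0 to 2 endothelial, 0 to 2 podocyte, 0 to 4 fibroblast and 0 to 2 lymphocyte genes passed, and 1 adrenal gene did without B6-TGFbeta replicate 3. The lowest tubule and macrophage counts came without B6-TGFbeta replicate 1. Where the probe sets were also summarised again over the remaining arrays, 0 to 3 macrophage, 1 to 7 tubule, 0 to 1 collecting duct, 0 to 1 podocyte and 0 to 2 fibroblast genes passed, and no endothelial or lymphocyte gene did. Cd44 passed in 15 and Cldn1 in 20 of 22 alternatives. Without B6-TGFbeta replicate 2, 8 macrophage and 9 tubule genes passed, and against B6-TGFbeta replicate 3 alone 1 of each did.

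**Figure D4:**
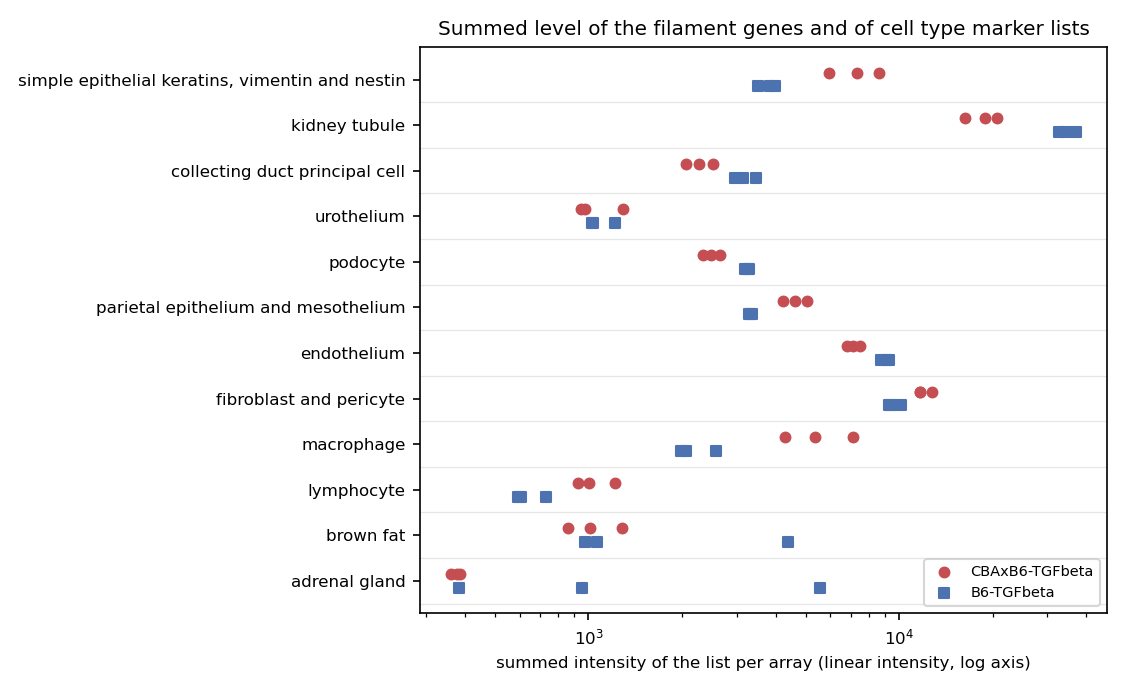
Summed linear intensity (log axis) of the 8 filament genes and of 11 marker lists on each array, CBAxB6-TGFbeta as red circles above B6-TGFbeta as blue squares. The filament sum is 5934 to 8610 in CBAxB6-TGFbeta and 3525 to 3980 in B6-TGFbeta, the urothelium sums overlap, and B6-TGFbeta replicate 2 stands apart for brown fat and adrenal gland.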

How the data were processed

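RNA of mice with renal fibrosis was hybridised to 6 Affymetrix gene arrays. The deposited table holds log2 intensities per exon probe set, 1 column per array, and RMA and Partek are named, without versions or settings, per the submitters' processing notes. For the annotation's genome build and the scaling of arrays, the sources used here give nothing.

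Of 241576 probe sets, 212097 carried 1 symbol and were combined into 20416 genes by median polish. The 4475 with several symbols and 25004 with none were left out. CBAxB6-TGFbeta minus B6-TGFbeta was fitted with limma 3.58.1 in R 4.3.3 (1 group term, moderated variances, two-sided, Benjamini-Hochberg over all genes, threshold 0.05) on all 6 arrays, and probe sets likewise. Standard errors are those of this model. Folds are 2 to the power of the log2 difference. The number of arrays limits the precision. The fit was tested on simulated data.

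The 8 genes and all lists were chosen with earlier results of these data known. Of 210 list entries 204 matched a gene, also through older symbols. Named are the 8 genes, of each filament-related list the passing genes with the smallest p (up to 4, or 2 as values where none passed), of each marker list the 2 largest differences (Ucp1 and Dbh for neighbouring tissues), and for each of the 8 the nearest profile. Chromosome neighbours were added after seeing the data. Alternatives are given with the closing limits.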

Additional observations from a re-analysis of the deposited data

How the results depend on the processing

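No paired analysis was possible because the groups share no replicate number. All 22 alternatives draw on the same 6 arrays, by which the 8 genes were chosen. Removing the dimmest genes or changing the moderation of the variances cannot alter a difference. Under all 22 alternatives Krt20, Krt8, Krt18, Vim and Nes stayed higher in CBAxB6-TGFbeta, at 2.89 to 3.42, 0.41 to 1.28, 0.64 to 1.33, 0.79 to 1.01 and 0.22 to 0.74. They passed in 21, 14, 8, 14 and 0 of them. Of the 8 genes 0 passed without moderation and 1 against B6-TGFbeta replicate 3 alone. With 1 array left out in turn 3 to 4 passed, and 1 to 2 where the probe sets were also summarised again over the remaining arrays, a choice made after seeing the data. Over all genes 617 passed with genes read from their brightest probe set, 63 without moderation and 45 against B6-TGFbeta replicate 3 alone, beside 1562 as reported. With 1 array left out 494 (B6-TGFbeta replicate 1) to 1550 passed, and 57 to 554 when summarised again (269, 117 and 554 without CBAxB6-TGFbeta replicates 4, 5 and 6, and 59, 77 and 57 without B6-TGFbeta replicates 1, 2 and 3). The cause was not tested. Of the 59 other filament genes 1 passed after a second quantile normalization (Krt33b), 2 with arrays centred on their medians or the dimmest 25% of genes removed (Krt33b and Lmnb1), 1 with the mean of probe sets, trended and robust moderation or array weights (Lmnb1), and 0 to 1 with 1 array left out.

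Directions of flat genes turned. Krt7 stood at -0.035 with the mean of probe sets and at -0.027 or, summarised again, -0.021 without B6-TGFbeta replicate 3. Krt19 stood at -0.055 with the mean and at -0.22 or, summarised again, -0.19 without CBAxB6-TGFbeta replicate 4. Krt23 stood at -0.053 with the mean, -0.21 without the dimmer 50% of probe sets, -0.0026 with array weights, -0.18 with replicate 3 alone, -0.024, -0.058 and -0.049 without replicates 1, 2 and 4, and -0.041 without replicate 1 summarised again. Brightest probe sets gave 0.48 for Krt33a and -0.092 for Krt9, and the mean gave 0.020 for Foxa1. Upk1a stood at 0.066 or, summarised again, 0.10 without CBAxB6-TGFbeta replicate 5 and at 0.063 with replicate 3 alone. With 1 array left out the highest values were 0.078 for Krt7, 0.26 for Krt19 and 0.094 for Krt23, and the lowest for Upk1a was -0.50. The causes were not tested.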

Other observations

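Some values belong to no comparison above. B6-TGFbeta replicate 1 also carried adrenal signal, with the steroid transport gene Star at 8.90 there, 10.74 in replicate 2 and 6.46 in replicate 3 of B6-TGFbeta, beside 5.86 to 6.44 in CBAxB6-TGFbeta. Within Krt23 probe set 10390861 lay wholly above in CBAxB6-TGFbeta (5.51, against 5.07 in B6-TGFbeta) while the gene value differed by 0.0040. Within Krt7 probe set 10427059 averaged 7.88 in CBAxB6-TGFbeta and 8.46 in B6-TGFbeta, the largest difference of its 10 probe sets, and the groups overlapped.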
